A study of Mus musculus with 26 samples.

Results

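The escalating and nonescalating cocaine self-administration groups made up 7 of the 26 libraries of the study. The members were chosen by their labels: 2 immunopurified libraries titled as escalating intake, and 5 titled as nonescalating intake with no withdrawal period. All came from the accumbens nucleus of adult mice that carried the Drd2-EGFP/Rpl10a transgene, line CP101, on an FVB/N-Swiss Webster background crossed to C57BL/6 for at least 9 generations. In this line EGFP-tagged ribosomal protein L10a is driven by regulatory sequence of Drd2, the gene of the D2 dopamine receptor, so the tag is carried by cells in which that sequence is active, and the saline controls carried it too. The mice took cocaine intravenously during long-access sessions. The remaining 19 libraries were 3 saline, 6 saline withdrawal and 8 nonescalating withdrawal immunopurified libraries, and 2 inputs (1 nonescalating, 1 saline) made without the pull-down. The criterion for escalation, the cocaine dose and the number of animals behind each library are not given in the sources. Every p-value therefore measures the spread between libraries, which may be technical. One label field of the 5 nonescalating libraries mentions withdrawal where their titles do not, and the titles were followed.

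Translating ribosome affinity purification (TRAP) pulls tagged ribosomes out of a tissue lysate with an antibody to EGFP and sequences the messenger RNA attached to them. In the striatum the D2 receptor marks the medium spiny neurons of the indirect pathway, which also make the adenosine A2a receptor and enkephalin, and it is found on cholinergic interneurons as well. The D2 receptor signals through inhibitory G proteins and lowers cyclic AMP. Cyclic AMP and calcium drive a fast wave of immediate early genes in these cells. Escalation of intake under long access is used in rodents as a model of the loss of control over drug taking.

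Library depth and library quality differed within the groups. Escalating replicates 1 and 2 held 17.5 and 7.63 M reads counted in genes, against 9.71, 2.55, 3.41, 2.45 and 1.90 M in nonescalating replicates 1 to 5. The means were 12.6 ± 6.98 M and 4.001 ± 3.23 M (SD, n = 2 and 5). An exact two-sided permutation test gave p = 0.0952 for depth, and 0.0476 is the smallest p that 2 against 5 libraries allow. A level of 3 counts corresponded to 0.197 and 0.443 CPM (read counts scaled to library size, with TMM factors) in the escalating libraries and to between 0.352 and 1.42 CPM in the nonescalating ones. Drd2 reached 2976 and 2334 CPM in escalating replicates 1 and 2, against 2568, 1254, 2135, 247 and 2005 CPM in nonescalating replicates 1 to 5, and 379 and 284 CPM in the nonescalating and saline inputs, which were scaled in a set of all 26 libraries. Nonescalating replicate 4 thus lay below both inputs for the gene whose regulatory sequence drives the tag. That library also had the highest level of the nuclear noncoding RNA Malat1, 78052 CPM, against 30380 and 9975 CPM in the escalating libraries and 8710 to 29277 CPM in the other nonescalating ones. Its 18 shared medium spiny neuron markers summed to 3374 CPM, against 14500 and 17670 CPM in the escalating libraries. Counts of genes are therefore given with and without it, and the part of library make-up in any single difference was not tested. The 2 escalating libraries correlated with each other at r = 0.773 over log2 levels. The 10 pairs within the nonescalating group ran between 0.695 and 0.825, and the 10 pairs across the groups between 0.700 and 0.823, as a description over genes that share libraries.

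**Figure D1:**
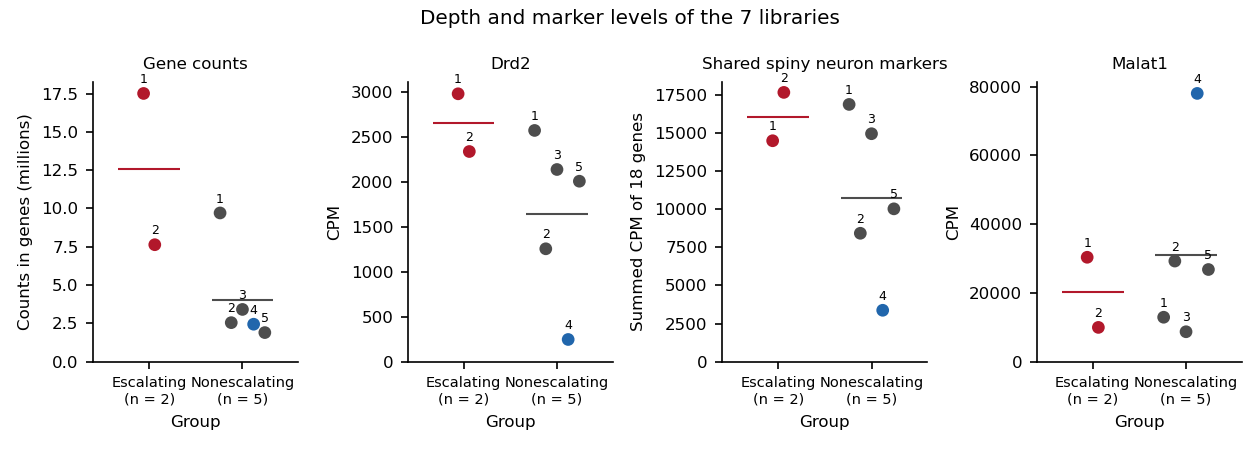
Reads counted in genes (M), Drd2 level, summed level of 18 shared medium spiny neuron markers and Malat1 level (CPM) in the 2 escalating and 5 nonescalating libraries. Points are libraries with their replicate numbers, lines are group means, and blue marks nonescalating replicate 4, which had 247 CPM of Drd2 and 78052 CPM of Malat1.

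Which genes differed between mice that escalated and mice that did not was asked first across all genes. The edgeR quasi-likelihood test called 0 of 15854 genes at an adjusted p under 0.05 (0%). The smallest adjusted p was 0.057, that of Ap2a1 described below. At an unadjusted p under 0.05, 546 genes (3.44%) were higher and 842 (5.31%) were lower in the escalating group. DESeq2 called 242 genes, 18 higher and 224 lower, 1.55% of the genes it tested, and 113 of the 242 had no count in one of the groups. Weighted limma-voom called 8 genes (0.0505%), all higher. Both escalating libraries lay above all 5 nonescalating libraries for 799 genes (5.04%) and below all 5 for 637 genes (4.02%). Of these genes, 296 higher and 297 lower ones also had an unadjusted p under 0.05. Were the 7 libraries interchangeable, 2 given libraries would rank highest for a share of 0.0476 of genes, and lowest for the same share. The shares of 5.04% and 4.02% lie near this, and an excess was not tested. Leaving out a nonescalating library raises that share, so the counts rise with fewer libraries. With a margin of 1.5-fold, on CPM + 1, 198 genes (1.25%) lay above and 229 (1.44%) below. Leaving out nonescalating replicate 4 gave 984 genes above (6.21%) and 774 below (4.88%) at the same scaling and over the same genes, and 984 and 779 when the filter and the scaling were also redone. Redone in the same way, leaving out nonescalating replicate 1 gave 1267 genes above, and leaving out nonescalating replicate 3 gave 1250 below. The split depended on scaling: median-of-ratios factors gave 610 above and 757 below, and plain CPM gave 531 above and 823 below. The median log2 fold change over all genes was -0.12 with TMM scaling and -0.26 with median-of-ratios scaling, and 45.5% of genes had a positive value. That median was -0.07 without nonescalating replicate 4, -0.56 without escalating replicate 1 and -0.34 without escalating replicate 2. Each list median below belongs beside the value over all genes from the same fit. Lists of genes below are set beside these values as a description, and no list was tested. Members of a list share the same libraries, and the values over all genes are not matched for level.

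**Figure D2:**
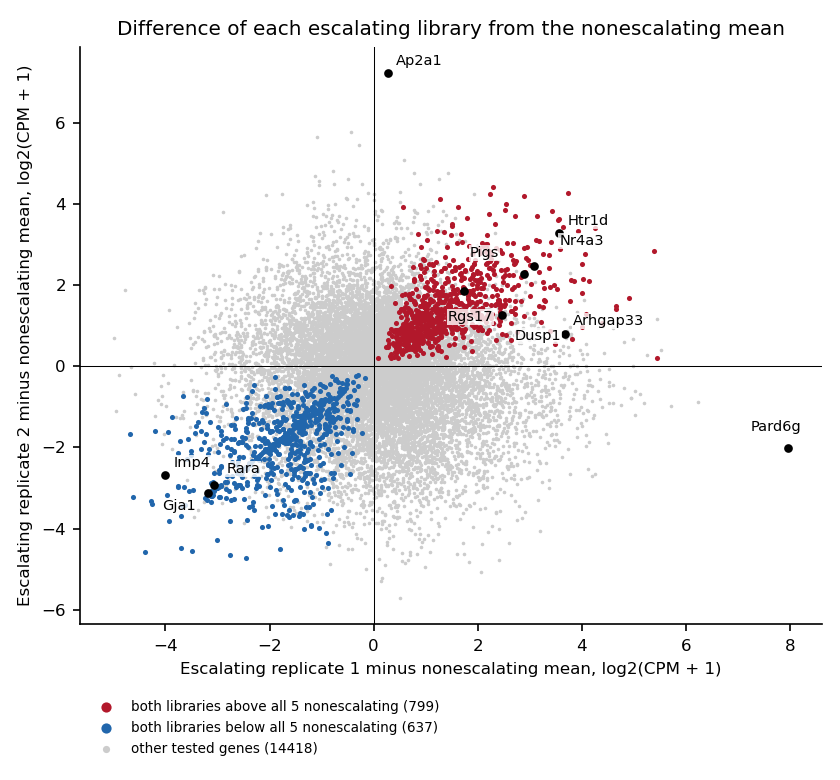
Difference of each escalating library from the mean of the 5 nonescalating libraries, on the log2(CPM + 1) scale, with escalating replicate 1 on the horizontal axis and replicate 2 on the vertical axis. Each point is 1 of 15854 genes. The 799 genes above the nonescalating range in both libraries and the 637 below it are coloured, and genes far from 0 in one library only, such as Ap2a1, lie along an axis.

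The genes above the nonescalating range were seldom extreme over the whole study. Of the 799 genes, 121 (15.1% of them, 0.763% of all genes tested) also lay above the 17 other immunopurified libraries. Of the 637 genes below, 40 (6.28% of them, 0.252% of all genes) also lay below those 17. The higher genes were more often abundant: 679 of the 799 had a mean log2 CPM of at least 3, against 415 of the 637 lower ones. A count of 0 in both escalating libraries was found for 1165 tested genes, and in all 5 nonescalating ones for 128, counts that cannot be compared because a gene reaches 0 more easily in 2 libraries than in 5. After every library was thinned to 1883662 counts, 13069 ± 605 genes were detected in the escalating and 14459 ± 1633 in the nonescalating libraries (SD, n = 2 and 5; exact permutation p = 0.381).

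Among the abundant genes with both escalating libraries above the range, the smallest p belonged to Rgs17 (chr10:5825663-5922400, minus strand, protein coding), a regulator of G protein signalling that speeds the shut-off of inhibitory G proteins. Rgs17 read 313 and 334 CPM in the escalating libraries, against 159, 80.4, 103, 41.9 and 123 CPM in the nonescalating ones. The groups did not overlap, and the lowest nonescalating value was that of replicate 4. Its log2 fold change was 1.67 ± 0.38 (SE), with an edgeR adjusted p of 0.442, and DESeq2 gave an adjusted p of 0.00779. In the saline libraries Rgs17 read 271, 318 and 142 CPM, so the escalating libraries stood near the upper saline values and all but 1 nonescalating library stood below the saline range. In the nonescalating and saline inputs it read 386 and 331 CPM.

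Pigs (chr11:78328415-78342782, plus strand), a subunit of the enzyme complex that attaches glycosylphosphatidylinositol anchors to proteins, had the other leading value. Pigs read 209 and 136 CPM in the escalating libraries, against 31.6, 12.1, 41.8, 40.7 and 23.2 CPM in the nonescalating ones. Both escalating values exceeded every other immunopurified library of the study. The log2 fold change was 2.53 ± 0.58 (SE) with an edgeR adjusted p of 0.442, and both DESeq2 (adjusted p = 0.0105) and limma-voom (adjusted p = 0.0454) called it.

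The other 10 of the 12 leading higher genes had edgeR adjusted p-values between 0.545 and 0.558. Htr1d, the inhibitory serotonin 1D receptor, read 93.5 and 76.0 CPM in the escalating libraries, against 12.1, 8.45, 5.03, 0.761 and 23.7 CPM in the nonescalating ones (log2 fold change 3.09 ± 0.83). Gpr173, an orphan G protein-coupled receptor, read 87.2 and 218 CPM, against 18.7, 4.04, 56.3, 6.85 and 17.5 CPM in nonescalating libraries (2.88 ± 0.82). Both receptors also exceeded the 17 other immunopurified libraries. Mtfr1l, related to mitochondrial fission regulators, had 126 and 114 CPM in escalating and 12.9 to 27.4 CPM in nonescalating libraries. Susd4, a membrane protein that restrains complement, had 162 and 94.2 CPM in escalating and 15.2 to 48.3 CPM in nonescalating libraries. Dynll2, a light chain of dynein and myosin V motors, had 259 and 236 CPM in escalating and 41.1 to 100 CPM in nonescalating libraries. Med16, a Mediator subunit, and Dhdh, a dihydrodiol dehydrogenase, each had a log2 fold change of 1.88. Fam192a, Bsdc1 and Ankrd33b had log2 fold changes of 2.26, 2.11 and 1.66. Of the 12 genes, 9 exceeded all 22 other immunopurified libraries (0.763% of all genes did), and Rgs17, Dhdh and Bsdc1 did not. DESeq2 called 9 of the 12, all but Dhdh, Bsdc1 and Fam192a, against 1.55% of the genes it tested. The 12 were chosen from the same libraries by small edgeR p and by lying above the range, so neither count is separate support.

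The 12 leading lower genes were mostly scarce in the escalating libraries. Imp4, a component of ribosomal RNA processing, read 0.525 and 2.81 CPM in the escalating libraries, against 64.3, 42.2, 9.44, 14.8 and 18.01 CPM in the nonescalating ones. Its values did not overlap, with 8 and 19 counts in the escalating libraries, and the log2 fold change was -4.19 ± 1.001 (edgeR adjusted p = 0.477). Rara (chr11:98927818-98974942, plus strand), the retinoic acid receptor alpha, read 0.721 and 0.886 CPM in the escalating libraries, against 22.6, 23.1, 1.26, 28.6 and 15.6 CPM in the nonescalating ones. Nonescalating replicate 3 held only 4 counts of Rara, so its separation from the escalating libraries (11 and 6 counts) lies within counting error. Kcnn2, a small-conductance calcium-activated potassium channel, read 0.525 and 1.62 CPM in the escalating libraries and 8.08 to 77.1 CPM in the nonescalating ones. Npr2, a receptor for C-type natriuretic peptide, read 2.16 and 1.48 CPM in the escalating libraries and 11.6 to 28.6 CPM in the nonescalating ones.

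Some of the lower genes were more abundant, among them Stxbp4, Man2b1 and Inpp5b. Stxbp4, a syntaxin-binding protein, read 9.84 and 13.4 CPM in the escalating libraries, against 59.9, 61.7, 64.5, 38.1 and 62.6 CPM in the nonescalating ones. Man2b1, the lysosomal alpha-mannosidase, read 25.8 and 12.8 CPM in the escalating libraries, against 55.4, 113, 103, 70.0 and 70.6 CPM in the nonescalating ones. The groups did not overlap for either gene, with log2 fold changes of -2.30 ± 0.66 and -2.09 ± 0.58 (SE, edgeR adjusted p = 0.558 for each), and both genes also lay below the 17 other libraries. Inpp5b, an inositol polyphosphate 5-phosphatase, read 10.8 and 16.5 CPM in the escalating libraries and 29.9 to 233 CPM in the nonescalating ones. Tulp3, a ciliary trafficking protein, read 1.90 and 1.18 CPM in the escalating libraries and 5.03 to 77.7 CPM in the nonescalating ones. Amy1, an amylase whose near-identical relatives make its counts uncertain, had 11 and 0 counts in the escalating libraries. Taf1c, an RNA polymerase I factor, had 2 and 0 counts in the escalating libraries, and Pex11g, a peroxisomal protein, had 0 and 1. Taf1c ranged from 0.474 to 114 CPM in the nonescalating libraries, and its lowest value there was 1 count. AK046832 had no count in either escalating library and was at least 29.9-fold lower, taking 3 counts in the shallower escalating library (0.443 CPM) as the floor. It also read 0 CPM in saline replicate 3 and in saline withdrawal library 1818. DESeq2 called all 12 of these lower genes, against 1.55% of the genes it tested, while edgeR adjusted p-values were 0.477 to 0.558. The 12 were chosen from the same libraries by small edgeR p and by lying below the range. Their DESeq2 calls are therefore not separate support.

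**Figure D3:**
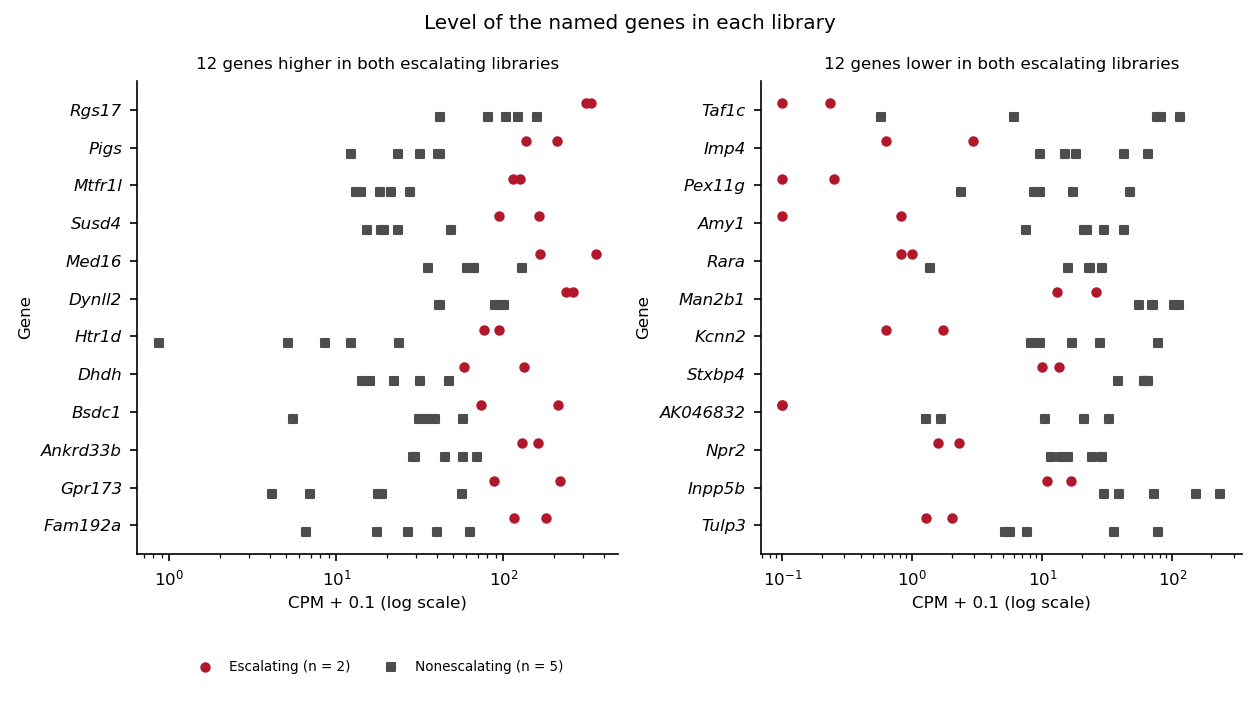
Levels of the 12 leading higher and 12 leading lower genes in the 2 escalating and 5 nonescalating libraries, as CPM + 0.1 on a log axis. Each point is a library. In all 24 genes the groups do not overlap, which is how the genes were chosen, and several lower genes sit at or near 0 in the escalating libraries.

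Immediate early genes, which neurons transcribe within minutes of strong input, were mostly higher in the escalating libraries, without a call. Of 29 tested members of the list, 5 lay above the nonescalating range (17.2%, against 5.04% of all genes) and 0 below it. A positive log2 fold change was found for 21 of the 29, with a median of 0.23, against -0.12 over all genes. At the same scaling, leaving out a nonescalating library cannot take a gene out of the set above the range. Without nonescalating replicate 4 no further member joined the 5 genes, and the median was 0.26. The median was -0.15 without escalating replicate 1 and 0.80 without escalating replicate 2, where the medians over all genes were -0.56 and -0.34. An unadjusted p under 0.05 was found for 5 of the 29 members (17.2%), all higher. Over all genes the shares were 3.44% higher and 5.31% lower. The 5 were Dusp1, Nr4a3, Klf10, Egr1 and Junb. Egr1 overlapped between the groups, and Junb was high in escalating replicate 1 only.

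Dusp1, a phosphatase that switches off MAP kinases, read 223 and 96.1 CPM in the escalating libraries, against 33.2, 28.6, 21.7, 73.5 and 61.1 CPM in the nonescalating ones. Saline libraries, at 97.0, 167 and 79.3 CPM, overlapped the escalating ones, and all 5 nonescalating libraries lay below them. Its log2 fold change was 1.87 ± 0.54 (SE, edgeR adjusted p = 0.558). Nr4a3 (chr4:48045153-48086447, plus strand), an orphan nuclear receptor, read 79.4 and 51.7 CPM in the escalating libraries, against 29.1, 5.14, 1.57, 9.52 and 14.2 CPM in the nonescalating ones. Both escalating libraries exceeded all 22 other immunopurified libraries, saline included (7.77, 18.4 and 7.51 CPM). The log2 fold change of Nr4a3 was 2.45 ± 0.97 (edgeR adjusted p = 0.558). Its relative Nr4a1 read 139 and 79.6 CPM in the escalating libraries, against 5.04, 16.5, 55.0, 67.0 and 33.6 CPM in the nonescalating ones (1.63 ± 0.89, edgeR adjusted p = 0.56). Klf10, a zinc-finger repressor, read 29.9 and 32.2 CPM in the escalating libraries and 2.52 to 12.8 CPM in the nonescalating ones, while saline libraries ran from 4.81 to 49.3 CPM. Klf10 reached 51.2 CPM among saline withdrawal and 91.1 CPM among nonescalating withdrawal libraries. Egr3, named here after its values were seen, read 199 and 144 CPM in the escalating libraries, against 130, 75.3, 139, 10.7 and 78.2 CPM in the nonescalating ones. For Egr3 the margin over nonescalating replicate 3 was small. Egr3 also reached 333 CPM among saline withdrawal and 255 CPM among nonescalating withdrawal libraries, above both escalating values.

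Other members of the list overlapped between the groups or lay near 0. Fos was near the detection limit, with 0 and 1.92 CPM in the escalating libraries and 0, 2.57, 0, 4.57 and 2.84 CPM in the nonescalating ones. Egr1, a zinc-finger factor of the same family as Egr3, read 759 and 515 CPM in the escalating libraries and 82.6 to 611 CPM in the nonescalating ones, so the groups overlapped. Junb, an AP-1 subunit, read 85.4 CPM in escalating replicate 1 and 1.03 CPM in replicate 2, against 0 to 6.85 CPM in the nonescalating libraries. The cytoskeletal effector gene Arc read 16.5 and 25.2 CPM in the escalating libraries and 6.47 to 87.1 CPM in the nonescalating ones. Egr1, Junb and Arc were named after their values were seen.

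**Figure D4:**
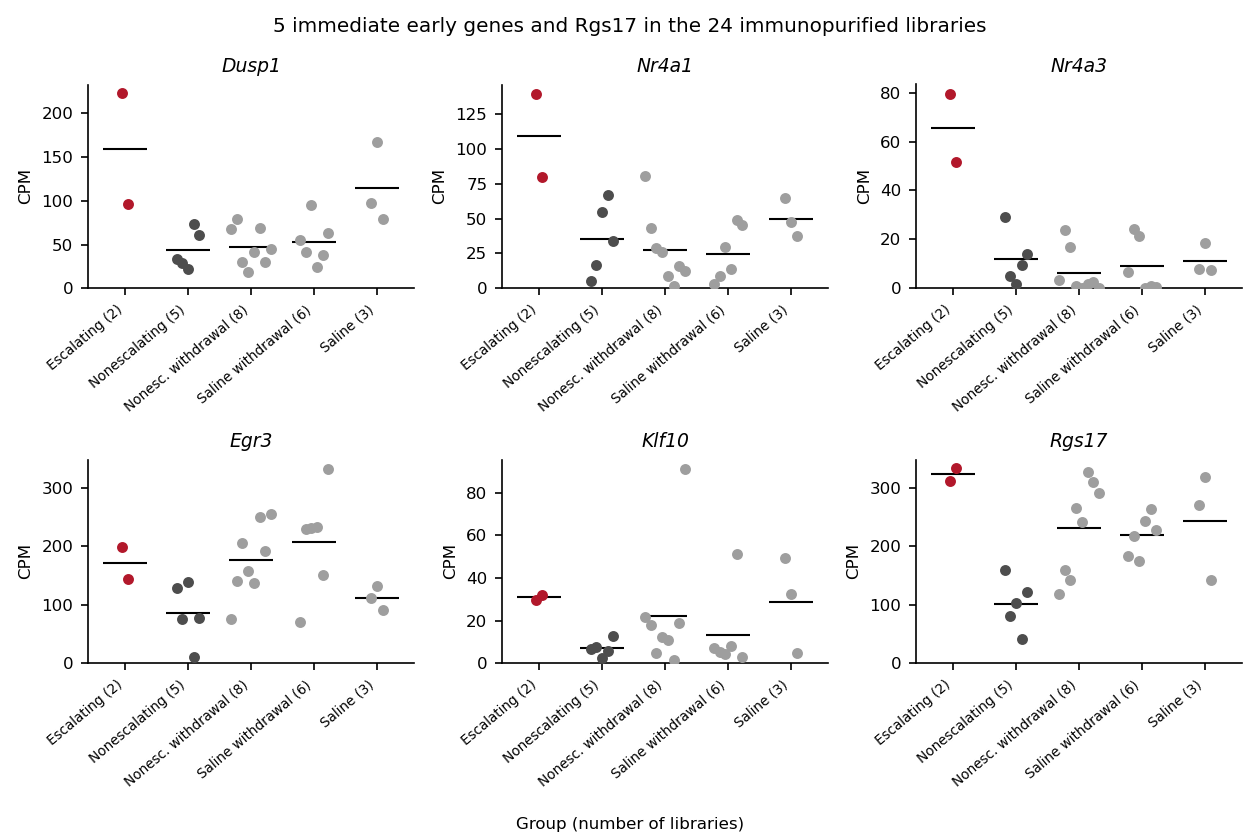
Levels (CPM) of Dusp1, Nr4a1, Nr4a3, Egr3, Klf10 and Rgs17 in all 24 immunopurified libraries by group. Points are libraries and lines are group means. Both escalating libraries lie above the 5 nonescalating ones in each panel, and for Dusp1, Klf10 and Rgs17 the saline libraries overlap the escalating ones. Egr3 and Klf10 read higher in some withdrawal libraries than in both escalating ones, up to 333 and 91.1 CPM.

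The promoters of the fast genes and of Rgs17 are shown because cyclic AMP acts through a short element, TGACG at its core, in such promoters. RefSeq promoters (GRCm38.p6) of 4 of the 6 genes in the plot of early genes were in the table used. The 250 bases before the RefSeq start site are printed, with capitals marking TGACG on either strand (CGTCA on the strand shown) and the AP-1 site TGANTCA. Dusp1 lies at chr17:26508473-26508722 (minus strand), Nr4a1 at chr15:101266596-101266845 (plus strand), Nr4a3 at chr4:48045055-48045304 (plus strand) and Rgs17 at chr10:5922401-5922650 (minus strand). GENCODE places the Rgs17 start at the end of the stretch shown. Its gene models of Dusp1, Nr4a1 and Nr4a3 begin further upstream, that of Nr4a3 at base 48045153 inside the stretch, so for these genes part or all of the stretch lies within the GENCODE gene.
Dusp1: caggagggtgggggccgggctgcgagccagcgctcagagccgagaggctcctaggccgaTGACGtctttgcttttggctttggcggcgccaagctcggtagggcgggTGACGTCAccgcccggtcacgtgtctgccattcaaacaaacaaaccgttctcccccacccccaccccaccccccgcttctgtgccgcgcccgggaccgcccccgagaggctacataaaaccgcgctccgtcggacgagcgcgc
Nr4a1: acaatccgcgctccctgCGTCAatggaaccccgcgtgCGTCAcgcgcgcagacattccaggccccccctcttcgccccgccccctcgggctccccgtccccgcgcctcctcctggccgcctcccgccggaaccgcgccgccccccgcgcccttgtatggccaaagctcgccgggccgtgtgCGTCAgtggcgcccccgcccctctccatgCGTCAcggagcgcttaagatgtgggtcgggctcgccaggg
Nr4a3: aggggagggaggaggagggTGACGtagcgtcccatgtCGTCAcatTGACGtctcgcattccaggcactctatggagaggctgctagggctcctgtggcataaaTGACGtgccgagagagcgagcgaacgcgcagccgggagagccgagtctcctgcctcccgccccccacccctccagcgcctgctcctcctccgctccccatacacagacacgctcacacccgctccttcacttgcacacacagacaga
Rgs17: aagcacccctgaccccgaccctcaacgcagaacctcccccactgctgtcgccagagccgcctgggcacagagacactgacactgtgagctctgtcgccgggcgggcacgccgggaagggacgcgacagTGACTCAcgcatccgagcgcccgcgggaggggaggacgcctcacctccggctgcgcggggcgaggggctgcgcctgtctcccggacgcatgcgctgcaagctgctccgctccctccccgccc
TGACG was found 3 times before Dusp1, 4 times before Nr4a1 and 4 times before Nr4a3, and not before Rgs17. In the Dusp1 promoter, matches at -143 and -140 overlap on opposite strands and form one palindrome. Rgs17 had a single TGANTCA match, at -122. Over 32851 promoters of this length, 17.8% held TGACG, 6.75% held TGANTCA and 1.47% held the serum response element (CArG box), which none of the 4 promoters held. These are matches of letters, not measured binding.

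Markers of D2 and shared medium spiny neurons had mostly positive fold changes in the escalating group, and edgeR called none. Adora2a, the adenosine A2a receptor, read 990 and 513 CPM in the escalating libraries, against 835, 653, 663, 61.7 and 366 CPM in the nonescalating ones. Penk, proenkephalin, read 2708 and 3951 CPM in the escalating libraries, against 4667, 1618, 3541, 344 and 2007 CPM in the nonescalating ones. Ppp1r1b, the dopamine- and cyclic AMP-regulated phosphoprotein DARPP-32, read 1734 and 1784 CPM in the escalating libraries, against 1883, 646, 963, 119 and 639 CPM in the nonescalating ones. The groups overlapped for all 3 genes and for Drd2, and nonescalating replicate 4 was the lowest in each. The 12 D2 neuron markers had a median log2 fold change of 0.50, and 0.21 without that library. Ttc12 was the only one above the range (8.33%, against 5.04% of all genes). The 18 shared spiny neuron markers had a median of 0.48, 0.27 without it and 0.28 without escalating replicate 2, with none outside the range. Of the 10 D1 neuron markers 4 had a positive value and the median was -0.38, or -0.10 without escalating replicate 1 and -1.42 without escalating replicate 2. Over all genes the medians were -0.12, -0.56 and -0.34, in the same order. Drd1, the D1 receptor, read 17.1 and 38.2 CPM in the escalating libraries and 12.9 to 55.9 CPM in the nonescalating ones, and Tac1, the substance P precursor, read 2.16 and 21.3 CPM and 4.57 to 63.2 CPM. Chat, the acetylcholine-synthesising enzyme of cholinergic interneurons, read 2.10 and 0 CPM in the escalating libraries and 0 to 21.2 CPM in the nonescalating ones. The 7 tested cholinergic interneuron markers went the other way from the D2 markers, with 2 positive and 5 negative values. Their median was -1.66, or -1.47 without nonescalating replicate 4, and none lay outside the range. In bulk TRAP libraries fewer cells of a type and less RNA per cell cannot be told apart.

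Genes of dopamine and cyclic AMP signalling had 21 of 25 positive log2 fold changes, with a median of 0.56, or 0.35 without nonescalating replicate 4 and 0.26 without escalating replicate 2. Akap5, which anchors protein kinase A at the membrane, read 704 and 934 CPM in the escalating libraries, against 674, 451, 477, 152 and 420 CPM in the nonescalating ones. Prkacb, a catalytic subunit of that kinase, read 704 and 691 CPM in the escalating libraries and 177 to 637 CPM in the nonescalating ones. Ppp1ca, a catalytic subunit of protein phosphatase 1, read 122 and 79.0 CPM in the escalating libraries and 13.7 to 59.1 CPM in the nonescalating ones. These 3 of the 25 lay above the range (12%, against 5.04% of all genes) and 0 below it.

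RGS proteins did not move one way as a family: 3 of 16 lay above the range (18.8%) and 1 below (6.25%). Of all genes, 5.04% lay above and 4.02% below. Beside Rgs17, Rgs8 read 842 and 869 CPM in the escalating libraries, against 698, 388, 647, 132 and 408 CPM in the nonescalating ones. Rgs8, a member of the R4 family, also exceeded all 22 other immunopurified libraries (log2 fold change 0.91 ± 0.43, edgeR adjusted p = 0.558). Rgs7bp, which binds R7 family RGS proteins to the membrane, read 410 and 505 CPM in the escalating libraries and 85.3 to 396 CPM in the nonescalating ones. Rgs6, an R7 family member, read 0.590 and 2.36 CPM in the escalating libraries and 4.41 to 14.8 CPM in the nonescalating ones. The list median was 0.09, 0.01 without nonescalating replicate 4, -0.01 with median-of-ratios scaling, and -0.12 and -0.11 without escalating replicate 1 or 2. Over all genes the medians were -0.12, -0.07, -0.26, -0.56 and -0.34, in the same order.

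Potassium channels had 6 of 42 members above the range (14.3%) and 2 below (4.76%), against 5.04% and 4.02% of all genes. Kcna1, a Kv1 channel that sets spike threshold, read 610 and 596 CPM in the escalating libraries, against 437, 229, 318, 63.6 and 273 CPM in the nonescalating ones (log2 fold change 1.19 ± 0.43). Kcnq5, which can carry the M current, read 274 and 171 CPM in the escalating libraries, against 124, 86.7, 69.5, 42.3 and 104 CPM in the nonescalating ones (1.38 ± 0.46). The edgeR adjusted p was 0.558 for both. Kcna2, Kcnh1, Kcnh7 and Kcnk2, named after their values were seen, were the other 4 above the range. Both genes below it were calcium-activated small-conductance channels: Kcnn2, given above, and Kcnn1, with no count in either escalating library and 1.90 to 22.4 CPM in the nonescalating ones, at least 22.2-fold lower. The list median was 0.32, or 0.07 without nonescalating replicate 4 and -0.18 without escalating replicate 2. Over all genes the medians were -0.12, -0.07 and -0.34, in the same order.

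Synaptic genes gave smaller counts. Syt5, a synaptotagmin of vesicles, read 401 and 407 CPM in the escalating libraries, against 236, 131, 240, 84.9 and 106 CPM in the nonescalating ones. Syt5 exceeded all 22 other immunopurified libraries, with a log2 fold change of 1.34 ± 0.42 (edgeR adjusted p = 0.558). In the vesicle and release list, 27 of 31 members had positive values and 2 lay above the range (6.45%, against 5.04% of all genes). Among glutamate receptor and scaffold genes 2 of 37 lay above the range (Grin1 and Shank3) and 2 below (Homer2 and Homer3). Each share was 5.41%, near the 5.04% above and 4.02% below of all genes. Grin1, the obligate NMDA receptor subunit, read 343 and 358 CPM in the escalating libraries and 127 to 297 CPM in the nonescalating ones. Homer2, a scaffold of group 1 metabotropic receptors, read 4.13 and 13.4 CPM in the escalating libraries and 18.7 to 63.5 CPM in the nonescalating ones. Gabrg3, a GABA-A receptor subunit, read 295 and 268 CPM in the escalating libraries and 43.4 to 255 CPM in the nonescalating ones. With Gabra3 it was 1 of 2 GABA genes of 20 above the range (10%, against 5.04% of all genes). Nts, neurotensin, read 10.95 and 13.7 CPM in the escalating libraries and 0.381 to 5.03 CPM in the nonescalating ones. It was the only 1 of 14 opioid and neuropeptide genes outside the range (7.14% above, against 5.04% of all genes). That list had 11 positive values and a median of 0.75, or 0.56 without nonescalating replicate 4 and 0.43 without escalating replicate 2.

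Mitochondrial and cytoskeletal genes had mostly positive fold changes. In the oxidative phosphorylation list 56 of 75 genes had positive log2 fold changes. Above the range lay 8 of them (10.7%, against 5.04% of all genes) and below it 0. The median was 0.43, or 0.26 without nonescalating replicate 4 and 0.16 without escalating replicate 2. Uqcrc1, a core subunit of complex III, read 126 and 259 CPM in the escalating libraries, against 61.0, 58.8, 65.7, 36.2 and 37.9 CPM in the nonescalating ones (1.89 ± 0.55, edgeR adjusted p = 0.558). Cox6c, a subunit of complex IV, read 72.3 and 44.9 CPM in the escalating libraries and 10.7 to 38.6 CPM in the nonescalating ones. In the actin and spine list 4 of 31 genes lay above the range (12.9%, against 5.04% of all genes) and 0 below. Limk1, the kinase that inactivates cofilin, read 101 and 44.0 CPM in the escalating libraries, against 3.28, 6.98, 7.86, 25.9 and 16.1 CPM in the nonescalating ones. Rac1, a small GTPase that builds actin networks, read 583 and 768 CPM in the escalating libraries and 341 to 520 CPM in the nonescalating ones. Cytosolic ribosomal protein genes had a median of 0.12, which was -0.01 with median-of-ratios scaling and -0.13 without escalating replicate 2. Over all genes the medians were -0.12, -0.26 and -0.34, in the same order. Above the range lay 7 of the 78 ribosomal protein genes (8.97%) and below it 2 (2.56%), against 5.04% and 4.02% of all genes.

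Markers of astrocytes and oligodendrocytes had mostly negative fold changes, and their summed levels were highest in the nonescalating library that stood apart. The 6 oligodendrocyte precursor markers did not share this: 3 had positive and 3 negative values, and they summed to 296 and 126.5 CPM in the escalating libraries and 129 to 263 CPM in the nonescalating ones. Of 15 astrocyte markers 3 had positive log2 fold changes. Above the range lay 1 (6.67%) and below it 2 (13.3%), against 5.04% and 4.02% of all genes. The astrocyte median was -0.62, or -0.08 without nonescalating replicate 4 and -0.96 without escalating replicate 2. Their summed level was 2492 and 2886 CPM in the escalating libraries and 954 to 4918 CPM in the nonescalating ones, the highest being replicate 4. Gja1 (chr10:56377330-56402513, plus strand), the astrocyte gap junction protein connexin 43, read 0.525 and 0.591 CPM in the escalating libraries, against 32.7, 0.735, 16.04, 24.7 and 19.0 CPM in the nonescalating ones. Nonescalating replicate 2 held 2 counts of Gja1, so its place above the escalating libraries (8 and 4 counts) is within counting error. Fgfr3, a growth factor receptor of astrocytes, had 3 and 0 counts in the escalating libraries and 0.937 to 37.3 CPM in the nonescalating ones. Slc4a4, a bicarbonate transporter, lay the other way, with 227 and 352 CPM in the escalating libraries and 72.7 to 207 CPM in the nonescalating ones. The 14 oligodendrocyte markers summed to 944 and 1316 CPM in the escalating libraries and 421 to 3619 CPM in the nonescalating ones. They had 4 positive fold changes and 2 members below the range (14.3%, against 4.02% of all genes). Their median was -0.60, or -0.23 without nonescalating replicate 4 and -1.37 without escalating replicate 2. Mag, a myelin glycoprotein, read 0.656 and 3.40 CPM in the escalating libraries, against 31.8, 12.1, 17.3, 13.7 and 19.0 CPM in the nonescalating ones. Mog, another myelin protein, had 1 and 0 counts in the escalating libraries and 0.586 to 8.76 CPM in the nonescalating ones. Kit, a receptor found in GABA interneurons among other cells, had no count in either escalating library. It read 0.315 to 11.5 CPM in the nonescalating ones, at least 14.4-fold lower in the escalating group. Kit was the only 1 of 7 tested GABA interneuron markers outside the range (14.3% below, against 4.02% of all genes). Of the 7, 3 had positive and 4 negative log2 fold changes. The part of the glial levels in the other differences was not tested.

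**Figure D5:**
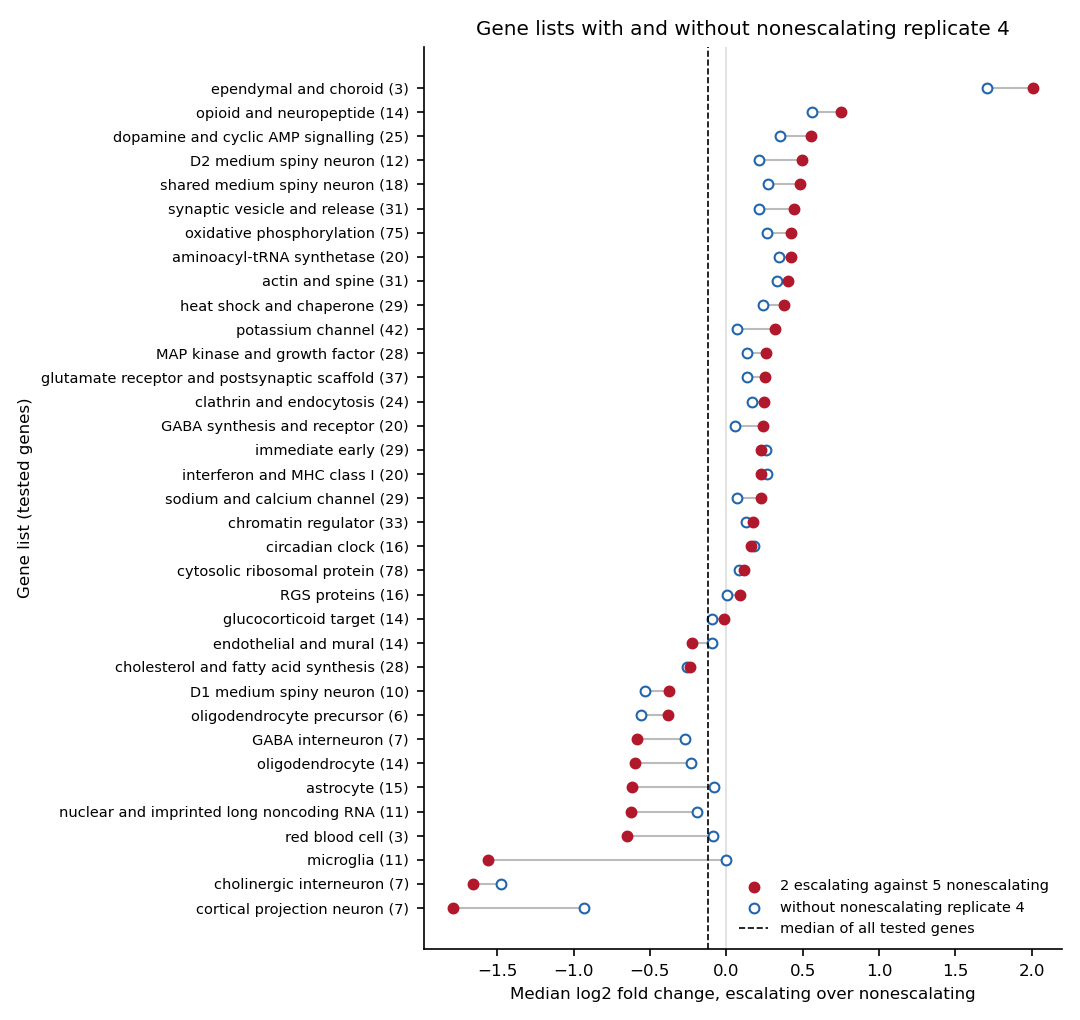
Median log2 fold change of escalating over nonescalating for the gene lists, with all 5 nonescalating libraries and without replicate 4. The dashed line is the median of all 15854 genes, -0.12. The medians of the D2 neuron, shared spiny neuron and cyclic AMP lists lie above it and are nearer to it without replicate 4, and the astrocyte median is -0.62 with and -0.08 without that library. The microglia and cortical neuron medians rest in part on genes with no count in one group and are -0.32 and -0.83 with those genes at their floor.

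The smallest p-values were shared by Rgs17 and Pigs with 3 genes whose differences came from a single library. Ap2a1 (chr7:44900373-44929496, minus strand), an alpha subunit of the clathrin adaptor AP-2, read 81.1 CPM in escalating replicate 1 and 10145 CPM in replicate 2, against 35.5, 112, 63.5, 62.1 and 86.7 CPM in the nonescalating libraries. Escalating replicate 1 lay within the nonescalating range, and the adjusted p of 0.057 (edgeR) rested on replicate 2. Pard6g, a cell polarity protein, read 1302 CPM in escalating replicate 1 and 0.295 CPM in replicate 2, against 1.90 to 8.53 CPM in the nonescalating libraries (edgeR adjusted p = 0.244). Without escalating replicate 1 its log2 fold change was -3.88. Arhgap33, a GTPase-activating protein, read 3228 CPM in escalating replicate 1 and 441 CPM in replicate 2, against 750, 180, 287, 106 and 248 CPM in the nonescalating libraries (edgeR adjusted p = 0.442). Such genes were found in every library: at least 10-fold above the next of the 7 libraries, on CPM + 1, stood 26 and 11 genes in the escalating libraries and 19, 14, 23, 30 and 6 in the nonescalating ones.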

How the data were processed

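Whole-number counts per gene were deposited by the authors, one table per library. Per the submitters' processing notes, STAR 2.0.0e and HTSeq were used with the mm10 mouse genome build. Neither annotation nor strandedness is given in the sources used here, so reads of overlapping and antisense genes cannot be separated. Library sizes exclude the 5 summary rows that HTSeq adds. Depth and its limits are given at the head of the report, and such limits cover counting error only.

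The 31735 genes shared by all tables were tested with edgeR 4.0.16 (quasi-likelihood, robust; TMM factors, filterByExpr minimum count 10) over 24 immunopurified libraries with group and library set as terms, and Benjamini-Hochberg adjustment at 0.05. Library sets are the low and high ranges of library numbers in the labels, and all 7 libraries described belong to one. Each SE was derived from the fold change and its F statistic. CPM values carry TMM factors, computed over 24 libraries, or over all 26 for the inputs. Alternatives were DESeq2 1.42.0, limma 3.58.1 (voom with quality weights), other scalings, filters and covariates, thinned counts, a replicate block, and leaving out each library. Statistics were checked on simulated data. Gene positions are GENCODE M21 (mm10).

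Members and gene lists were chosen with earlier results of these data known. Named genes with both escalating libraries outside the nonescalating range were the 12 smallest p in each direction and up to 4 per list. The 12 had a mean level of 3 or more (log2 CPM), and symbols of set predicted or clone forms, such as those ending in Rik, were left out. Symbols that start with AK were not among these forms, so AK046832 was kept. List members had no limit on level. The 5 smallest p overall and 12 fixed genes were added. Some qualify under several of these, and some are not reported here.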

Additional observations from a re-analysis of the deposited data

Results flagged for a closer look

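Among the 101 values examined over the 5 nonescalating libraries, 10 had 1 library far from the other 4. On the log2 CPM scale, 5 of them were in nonescalating replicate 4: Scn4b, a sodium channel beta subunit, at 4.796, Cox6c at 3.464 and the spine scaffold gene Baiap2 at 6.864 were low, and the ribosomal protein gene Rps7 at 4.796 was high. Stxbp4 was also low there, at 5.265. The other low values were Bsdc1 in nonescalating replicate 1 at 2.527, Rara in replicate 3 at 0.7069, Kit in replicate 3 at -0.5382 and Gja1 in replicate 2 at 0.1489. The remaining one was the total of 9.706 M counts in nonescalating replicate 1, the deepest of the 5.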

How the results depend on the processing

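The count of genes called was 242 with DESeq2, 8 with voom, 1 with a filter of 1 CPM in 5 of the 7 libraries (Ap2a1) and 2 with only library set 1 (Ap2a1 and Pard6g), and 0 to 2 when 1 library was left out. Without escalating replicate 1, Ap2a1 was called; without replicate 2, Arhgap33 and Pard6g; without nonescalating replicate 1, Arhgap33. Genes above the nonescalating range numbered 531 with plain CPM, 198 with a 1.5-fold margin and 961 to 1267 when 1 library was left out. Genes below it numbered 229 with the margin and 768 to 1250 when 1 library was left out. Signs turned, on the log2 scale, over the sets that left out 1 library for Pard6g (-3.88 to 8.11) and Adora2a (-0.0092 to 0.94), both lowest without escalating replicate 1, and Malat1 (-1.64 to 0.053), positive without nonescalating replicate 4. Penk turned to -0.073 with a non-neuronal covariate. Drd1 turned to -0.10 with DESeq2 and with median-of-ratios scaling, -0.47 with voom, -0.047 with the CPM filter, -0.11 with the share of reads in genes as covariate and -0.17 with thinned counts. When 1 library was left out, Drd1 ran from -0.67 to 0.50, the lowest being without escalating replicate 2. The causes were not tested. Only 2 replicate numbers are shared between the groups, and nothing in the labels pairs them; deviations of same-numbered libraries correlated at -0.10 and -0.14 over genes. A fit with the replicate block called 0 genes, and 1267 had an unadjusted p under 0.05. With 2 escalating libraries, depth and library number limit every comparison.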

Other observations

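Genes of sterol and fatty acid synthesis, a group not described above, had 1 of 28 members above the nonescalating range and 4 below it (14.3%, against 4.02% of all genes). Mvd, an enzyme of the mevalonate pathway, read 35.7 and 13.9 CPM in the escalating libraries, against 0.117, 5.14, 0.315, 0 and 4.74 CPM in the nonescalating ones. Elovl2, Elovl4 and Fads2, which lengthen and desaturate fatty acids, and the sterol demethylase Cyp51 were the 4 below. Fads2 read 1.18 and 8.12 CPM in the escalating libraries and 11.02 to 62.8 CPM in the nonescalating ones. Elovl2 had 0 and 5 counts in the escalating libraries, and Cyp51, named after its values were seen, read 14.6 and 14.5 CPM there against a lowest nonescalating value of 15.1 CPM. The list median was -0.24, against -0.12 over all genes.

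Among 16 circadian clock genes only Nr1d1 lay outside the range, below it (6.25%, near the 4.02% of all genes). Nr1d1, the repressor REV-ERB alpha, read 13.8 and 24.7 CPM in the escalating libraries, against 69.4, 91.5, 43.7, 56.0 and 84.4 CPM in the nonescalating ones (log2 fold change -1.84 ± 0.68, edgeR adjusted p = 0.558). Its saline values were 57.3, 66.9 and 60.4 CPM, within the nonescalating range. Rasgrf2, a Ras exchange factor, read 4.79 and 8.42 CPM in the escalating libraries, against 30.7, 79.7, 37.4, 11.04 and 44.1 CPM in the nonescalating ones (-2.62 ± 0.86, edgeR adjusted p = 0.558). Dusp3, a phosphatase of MAP kinases, read 193 and 158 CPM in the escalating libraries, against 88.2, 95.9, 87.8, 108 and 91.5 CPM in the nonescalating ones. Cacna1d, the L-type calcium channel Cav1.3, read 7.80 and 17.9 CPM in the escalating libraries, against 23.0, 19.8, 26.7, 57.9 and 72.5 CPM in the nonescalating ones.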
